A study of Homo sapiens with 13 samples.

Results

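miR-27a is a small regulatory RNA, and the measurements described here are of the mRNAs that were captured with it from cells of the HEK293T line, which was derived from human embryonic kidney. The 3 libraries titled miR-27a, of 13 in the series, were set against the 10 libraries of unrelated miRNAs: 2 of miR-23b, 2 of miR-182-iso, 3 of miR-17-5p and 3 of miR-17-5p-iso. Cells of every group received 200 pmol of a duplex that carried biotin and were taken 24 h later, and Illumina HT-12 arrays read the RNA that streptavidin beads had held. No gene was deleted or otherwise altered, and the labels set the groups apart by the duplex alone. The suffix iso marks an isomiR, a variant of the miRNA with a shifted 5′ end. The duplex was added from outside, so its level need not match that of the miRNA made by the cell.

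A miRNA guides the RNA-induced silencing complex (RISC), built around an Argonaute protein, to mRNAs with which it can pair, and the bound mRNA is translated less or degraded. Pairing usually runs through the seed, bases 2 to 8 from the 5′ end of the miRNA. Centered sites instead pair with its middle. miR-27a is known for its part in fat cell formation, where PPARG is among its described targets, and for its high levels in several tumors. With the biotin on the duplex, an mRNA held by its RISC is expected on the beads. The study amplified the same mass of captured RNA from each sample and normalized the signals. The signal of a probe thus stands for the relative share of its mRNA in the captured RNA. The study names binding to the beads without the miRNA as a possible further source.

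As pairing usually runs through the seed, although centered sites use the middle, the strands that enter RISC are shown first. They are written 5′ to 3′, with the seed in capitals:
miR-27a: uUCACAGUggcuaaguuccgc
miR-23b: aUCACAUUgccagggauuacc
miR-182-iso: uGGCAAUGguagaacucacacu
miR-17-5p: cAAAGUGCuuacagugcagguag
miR-17-5p-iso: uCAAAGUGcuuacagugcaggua
The miR-27a strand is identical to RefSeq's mature hsa-miR-27a-3p, which lies at chr19:13836447-13836467 on the minus strand (GRCh38.p14). The duplexes are unrelated by family, but their seeds are not equally far apart. The seed of miR-23b has the same base as that of miR-27a at 6 of 7 positions, all but position 7. The seed of miR-17-5p shares 2 positions with it, and those of miR-182-iso and miR-17-5p-iso share 1 each.

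For luciferase tests with miR-27a the study cloned short stretches of mRNAs. Its list of cloning oligonucleotides, as used here, holds 12 of them, 4 with a seed site and 8 with a centered site, and it does not cover every seed target that the study tested. Windows of 30 bases from 9 of these inserts are shown, because the capture of their genes is described further on. Capitals mark the seed site (opposite bases 2 to 8, or bases 2 to 7 and a following A) or the 11 bases opposite the middle of miR-27a:
E2F6 (chromosome 2, seed site): taccattagACTGTGAgctccttgagggac
LEF1 (chromosome 4, seed site): gtggcttctCTGTGAAttgcctgtaacaca
FYN (chromosome 6, seed site): gaacctcctCTGTGAAgcattcgagacaga
MAP2K3 (chromosome 17, centered site): tggggcagttaCCTGGTTGCTGttttaatt
MAPKAPK5 (chromosome 12, centered site): taataatagTATAGTTATTGtttgttttta
PRKCI (chromosome 3, centered site): caacaggcgTGCTCACTGTGccatctgcac
RHOA (chromosome 3, centered site): gttaccttaTAGTTACTGTGtaattagtgc
RALB (chromosome 2, centered site): cctttgcctctgagaaTTGGCTGCTGTttc
TGFBR2 (chromosome 3, centered site): tcaggggccTGTGGCCGCTGcacatcgtcc
The E2F6 window holds the full complement of the seed. Those of LEF1 and FYN hold the complement of bases 2 to 7 followed by an A. The centered match began at miRNA base 5 in MAP2K3, MAPKAPK5 and TGFBR2, at base 4 in RALB and at base 3 in PRKCI and RHOA. It was free of mismatches in RALB and RHOA when G:U pairs were allowed, and had 1 mismatch in the other 4 windows. The miRNA seeds and these windows come from the study's tables of duplexes and cloning oligonucleotides. Full transcripts were not searched for sites.

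Normalized signals ran from 7.42 to 15.5 on a log2-like scale, with library medians between 8.53 and 8.60. On this scale a difference of 1 is close to 2-fold for bright probes, and differences of dim probes are understated. The miR-27a libraries correlated at r = 0.959 to 0.973 with each other over the 12007 probes. They correlated at 0.928 to 0.953 with miR-23b, at 0.870 to 0.947 with miR-17-5p, at 0.881 to 0.935 with miR-17-5p-iso and at 0.797 to 0.907 with miR-182-iso. The miR-182-iso libraries thus stood farthest from them, and results that rest on them are given with and without them. Of 7 HEK293T markers listed, 6 were measured. CDH2 (N-cadherin) and VIM (vimentin) were brighter than 97.1% and 94.6% of probes. KRT18 and KRT8 (keratins) were brighter than only 1.7% and 26.8%, and NEFL and NEFM (neurofilaments) than 17.2% and 44.5%. Between miR-27a and the mean of the other duplexes, CDH2 differed by 0.57 and VIM by -1.51. Of 18 markers of epithelial, fibroblast, blood, liver and endothelial cells, only COL1A1, a fibroblast collagen, had a probe in the table. It was brighter than 2.6% of probes. The study kept only probes detected in all its mock controls, so a missing marker may still have a probe on the array. The study used HT-12 arrays of more than 1 version, and which version held each library was not established here, so its part in the differences was not tested.

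Capture with miR-27a differed from that with the unrelated duplexes for a broad set of mRNAs in both directions. Each gene was represented by its probe with the highest mean signal. Of 8378 genes, 1433 (17.1%) were higher and 1412 (16.9%) lower with miR-27a than with the mean of miR-23b, miR-182-iso and the miR-17 family, each weighted equally. These calls are at an adjusted p under 0.05, from limma's two-sided test with Benjamini-Hochberg adjustment over all probes. The median difference over all 8378 genes was -0.025, that of the genes called higher 0.647 and that of the genes called lower -0.574. Among the called genes 207 were higher and 140 lower by over 1, and 14 were higher and 2 lower by over 2. By probe, 1830 (15.2%) were higher and 1816 (15.1%) lower. The counts depended on single miR-27a libraries: without replicate 1, 1117 probes were higher and 1051 lower, and without replicate 2 or 3, 1210 and 1101 were lower.

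A stricter description counts the features whose 3 miR-27a libraries all lay beyond all 10 others. There were 516 such genes above (6.16%) and 493 below (5.88%), and 504 and 444 of them were also called. By probe there were 674 above (5.61%) and 628 below (5.23%), a count that grows with fewer libraries, to 1013 and 1076 without miR-27a replicate 2 and 1102 above without replicate 3. Without the miR-182-iso libraries in the comparator, 707 genes (8.44%) were higher and 740 (8.83%) lower. No mock-transfected library is among the 13, so these differences are relative. An equal share of the captured RNA with every duplex gives 0, and a lower gene is one whose share was, on balance, larger with the other duplexes. The level of an mRNA in the cells, the number of cells and the efficiency of capture cannot be told apart from these signals. Whether the replicates were separate cultures is not stated, so the p-values measure the spread between these libraries, which may be technical, and their number limits the precision.

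**Figure D1:**
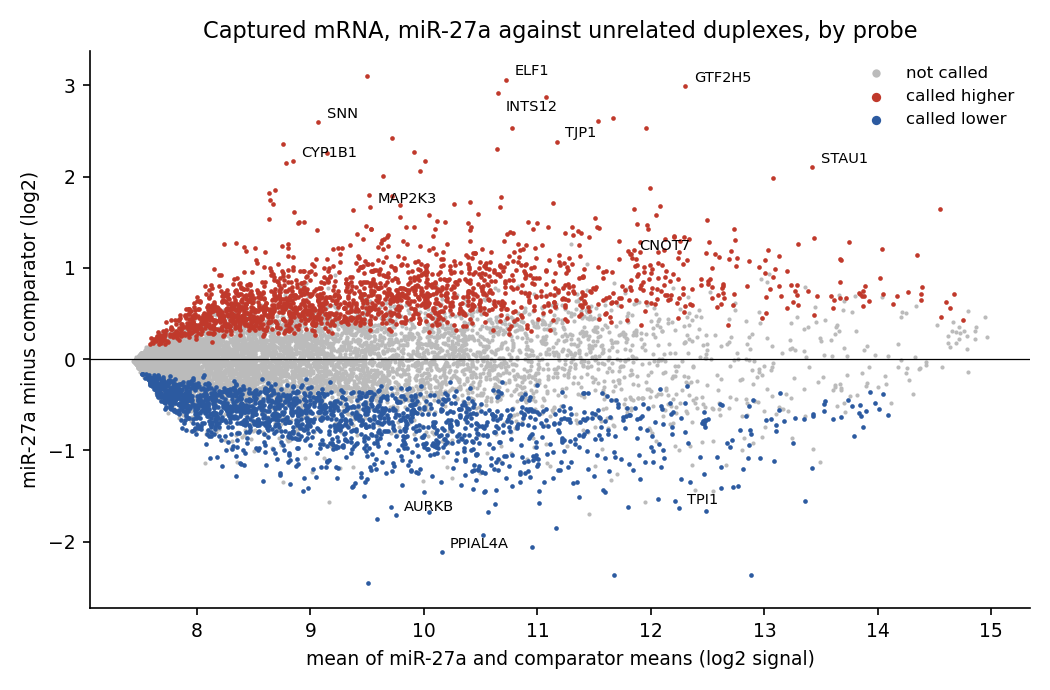
Each point is 1 of 12007 probes, with the mean of the miR-27a and comparator means on the x axis and the difference, miR-27a minus comparator, on the y axis, both on the log2 scale. Probes called higher (red, 1830) and lower (blue, 1816) at an adjusted p under 0.05 lie at all signal levels, and selected named genes are marked.

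The largest positive differences were of mRNAs from unrelated parts of the cell. These genes were picked among called ones whose 3 miR-27a libraries all lay above the 10 others. Of all genes, 6.16% had their libraries so placed, called or not. ELF1, an ETS family transcription factor, led the genes, at 12.57, 11.87 and 12.34 in the miR-27a libraries against 8.67 to 9.70 (median 9.34) in the 10 others. Its difference was 3.06 (standard error 0.14, limma adjusted p = 4.25e-06). GTF2H5, the smallest part of TFIIH, a factor of both transcription and DNA repair, stood at 13.81, 13.60 and 13.99 against 10.19 to 11.66 (median 10.59). Its difference was 3.0 (standard error 0.13, adjusted p = 4.22e-06), and the miR-27a libraries of both genes lay more than 1 unit above the brightest other library. INTS12, of the Integrator complex that processes small nuclear RNAs, had values of 12.68, 10.69 and 12.96 against 8.61 to 9.54 (median 9.07), so that replicate 2 lay far below the other miR-27a libraries but still above all 10 others. Its difference was 2.92, with a standard error of 0.40 and an adjusted p of 0.00127. MAIP1, a mitochondrial matrix protein that interacts with an inner membrane protease, was at 12.32, 12.13 and 13.07 against 8.70 to 10.58 (median 9.92), a difference of 2.87 (adjusted p = 0.000128).

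SNN (stannin), a small membrane protein, reached 10.60, 9.81 and 10.71 with miR-27a and was near the floor of the arrays with the other duplexes, at 7.56 to 8.10 (median 7.76) (difference 2.60, adjusted p = 3.82e-05). CYP1B1, a cytochrome P450, was also near the floor with them, at 10.11, 9.58 and 10.08 with miR-27a against 7.59 to 7.90 (median 7.79), a difference of 2.17 (adjusted p = 6.82e-06). For both, a compressed scale at low signal means that the difference is understated. At the bright end, STAU1 (Staufen 1), which binds double-stranded RNA, was at 14.80, 13.89 and 14.73 against 11.93 to 12.86 (median 12.42), a difference of 2.10 (adjusted p = 0.000442). DNAJC8, a J-domain protein tied to splicing, had 14.41, 13.65 and 14.13 against 11.65 to 12.92 (median 12.19), a difference of 1.98. In these 4 genes the groups did not overlap, as their choice fixes.

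TJP1 (ZO-1), a scaffold of tight junctions, was at 12.36, 12.21 and 12.53 with miR-27a and at 9.30 to 10.34 (median 9.91) with the others, a difference of 2.39 with the tightest replicates of the 15 leading genes (SD 0.161). KIF2A, a kinesin that takes apart microtubule ends, was at 10.90, 10.65 and 11.60 against 8.33 to 9.24 (median 8.95), a difference of 2.28. MAGEF1, of the MAGE family, reached 9.72, 10.28 and 10.82 against 7.57 to 8.56 (median 7.81), a difference of 2.26. The miR-27a replicates of KIF2A and MAGEF1 spread over about 1 unit, and all lay above the 10 others, as the choice of these genes fixes. SF3B4, of the U2 particle of the spliceosome, was at 13.71, 12.04 and 13.91 against 10.19 to 11.29 (median 10.63), a difference of 2.53. SLC46A3, a lysosomal transporter, was at 11.25, 10.05 and 11.51 against 7.88 to 9.0 (median 8.73), a difference of 2.43. Both were lowest in replicate 2 among the miR-27a libraries.

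MRPS18C, of the small subunit of the mitochondrial ribosome, was at 10.97, 11.17 and 13.25 against 8.40 to 10.50 (median 9.68). Its difference of 2.31 had the largest spread of the 15 (SD 1.26) and a standard error of 0.53 (adjusted p = 0.0107). UQCR10, a subunit of respiratory complex III, was at 11.36, 9.75 and 12.16 against 8.53 to 9.24 (median 8.89), a difference of 2.17 (standard error 0.39). Its other 2 probes were not called, with differences of 0.92 and 0.71, so the size of its difference depended on the probe. Replicate 2 was the lowest miR-27a library for 13 of these 15 genes and for 3765 of all 12007 probes. All 15 genes were also called against each comparator family alone, and all kept their call when any single library was left out. Their choice, as the largest differences among called genes without overlap, makes both likely. Of all genes, 3.39% were higher against miR-23b alone, 20.2% against miR-182-iso alone and 14.2% against the miR-17 family alone.

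**Figure D2:**
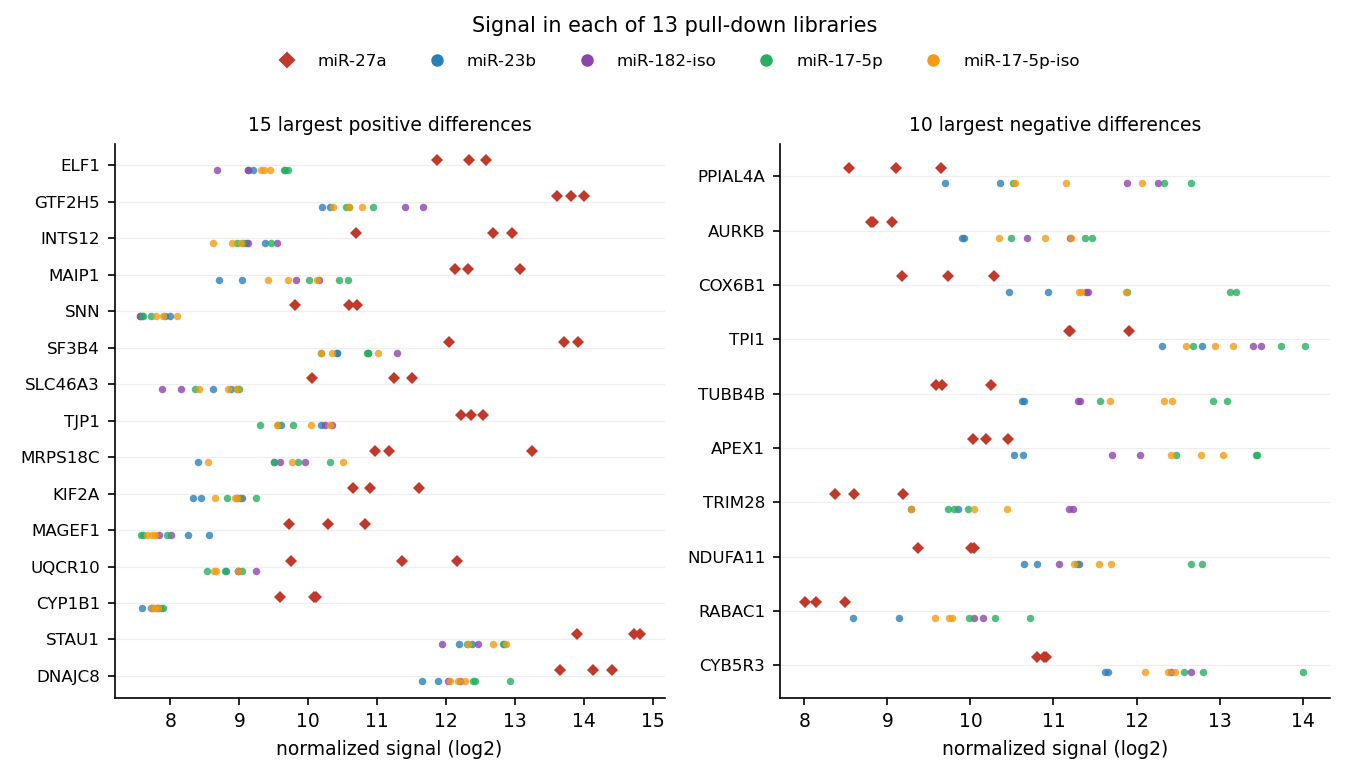
Normalized log2 signal (x axis) of each library for the 15 largest positive (left) and 10 largest negative differences (right) among called genes without overlap, with miR-27a as red diamonds above and the 10 other libraries as circles below. The red diamonds lie clear to the right of all circles on the left panel and clear to the left on the right panel, as the choice of these genes fixes, and in the right panel the nearest circle is always a miR-23b library.

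Among the genes with the largest negative differences, several make abundant proteins of metabolism and cell division. These genes were picked among called ones whose 3 miR-27a libraries all lay below the 10 others. Of all genes, 5.88% had their libraries so placed, called or not. AURKB (Aurora B), a kinase of chromosome segregation, was at 8.83, 9.06 and 8.81 with miR-27a against 9.90 to 11.46 (median 10.79), a difference of -1.71 (standard error 0.23, adjusted p = 0.0013). TPI1, the triosephosphate isomerase of glycolysis, was at 11.20, 11.92 and 11.18 against 12.31 to 14.03 (median 13.05), a difference of -1.63. COX6B1, of cytochrome c oxidase, was at 9.18, 10.28 and 9.73 against 10.46 to 13.19 (median 11.40), a difference of -1.68. In all 3 the libraries did not overlap, as their choice fixes, and the other duplexes themselves spread over more than 1 unit. NDUFA11, of respiratory complex I, had 9.37, 10.01 and 10.04 against 10.65 to 12.79 (median 11.30), a difference of -1.45. TUBB4B, a beta-tubulin, had 9.59, 10.25 and 9.66 against 10.62 to 13.09 (median 11.62), a difference of -1.59. Tubulin mRNAs resemble each other, and which of them a probe also reads was not tested.

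APEX1, an endonuclease of DNA base excision repair, was at 10.19, 10.46 and 10.03 with miR-27a, at 10.58 on average with miR-23b, at 11.88 with miR-182-iso and at 12.93 with the miR-17 family. Its difference was -1.57, and the gap was widest to the miR-17 family, without which the difference was -1.0 and still called. TRIM28, a corepressor that works with zinc finger proteins, was at 8.59, 9.19 and 8.37 with miR-27a against means of 9.57, 11.22 and 9.88 with miR-23b, miR-182-iso and the miR-17 family, a difference of -1.50. RABAC1, a membrane protein that binds RAB GTPases, was -1.45 and CYB5R3, a cytochrome b5 reductase, -1.43. PPIAL4A, with the most negative difference (-2.11, standard error 0.47), is one of a set of near-identical copies related to the cyclophilin PPIA, and which of them its probe also reads was not tested. Its call was lost when both miR-182-iso libraries were left out of the fit (-1.68, adjusted p = 0.0613). None of these 10 genes was called against miR-23b alone, against which 4.61% of all genes were lower. Their differences from it ran from -1.11 for TPI1 to -0.35 for APEX1. For all 10, the comparator library nearest to miR-27a was one of miR-23b.

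Of the 12 genes with listed inserts 11 were measured, and 7 of them (63.6%) were higher and 0 lower, beside 17.1% and 16.9% of all genes. Their median difference was 0.60. The study chose the genes of both kinds of site among those it had found in miR-27a pull-downs, so none of these counts is independent evidence. By site, 3 of 4 genes with seed sites and 4 of 7 measured genes with centered sites were higher. In 5 of the 11 genes all miR-27a libraries lay above all 10 others and in 0 below, beside 6.16% and 5.88% of all genes. Against a comparator without miR-182-iso, 4 of the 11 were higher and 0 lower, beside 8.44% and 8.83% of all genes. Against miR-23b alone only MAP2K3 and RHOA were higher, beside 3.39% of all genes, and the list's median was 0.42. The differences of CNOT7, LEF1, E2F6, MAPKAPK5 and PRKCI from miR-23b were 0.43, 0.28, 0.52, 0.58 and 0.42, not called.

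Among the genes with a seed site, CNOT7, a catalytic subunit of the CCR4-NOT complex that shortens mRNA tails, was at 12.30, 12.30 and 12.60 with miR-27a against 10.21 to 11.97 (median 11.11) (difference 1.16, standard error 0.17, adjusted p = 0.00181). LEF1, a transcription factor of Wnt signaling, was at 9.17, 9.15 and 9.20 against 8.38 to 8.95 (median 8.75) (difference 0.49, standard error 0.08, adjusted p = 0.00213). E2F6, a repressor of the E2F family whose insert has the full seed complement, was at 10.83, 10.56 and 10.58 against 9.34 to 10.38 (median 9.91) (difference 0.79, adjusted p = 0.0151). The miR-27a libraries of all 3 genes lay above all 10 others. The call for E2F6 was lost without the miR-182-iso comparator (0.66) and without miR-27a replicate 1 (0.70). FYN, a SRC family kinase, whose insert has the same kind of seed site as that of LEF1, was at 9.17, 9.34 and 9.0 against 8.74 to 9.51 (median 9.21). The 2 groups overlapped throughout, and the interval of the difference was -0.40 to 0.23 (95%).

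Of the genes with centered sites, MAP2K3, a kinase that activates p38, had the largest difference of the whole list. It was at 10.69, 9.74 and 10.62 against 8.26 to 9.22 (median 8.61) (difference 1.66, standard error 0.21, adjusted p = 0.000837), and was also called against miR-23b alone (1.18, adjusted p = 0.033). MAPKAPK5, a kinase downstream of p38-type MAP kinases, was at 10.71, 9.97 and 10.84 against 8.98 to 9.93 (median 9.69) (difference 0.96, adjusted p = 0.00418). The miR-27a libraries of both genes lay above all others, and replicate 2 was the lowest of them in both. PRKCI, an atypical protein kinase C of cell polarity, was at 9.69, 9.35 and 9.13 against 8.20 to 9.35 (median 8.72), and RHOA, a GTPase of the actin cytoskeleton, at 13.06, 13.26 and 12.76 against 11.75 to 13.23 (median 12.86). Their differences were 0.65 and 0.60, and their libraries overlapped with some of the others. For RHOA the overlap was with the miR-17 family: its miR-27a mean was 13.03 ± 0.25 (SD, n = 3), against 13.01 with the miR-17 family.

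The calls of these 2 genes were not stable. Without the miR-182-iso comparator they were at 0.56 and 0.43 and no longer called. That of RHOA was also lost without miR-27a replicate 1 (0.58) or 2 (0.48), and with the 10 other libraries weighted equally (0.37). That of PRKCI was lost without miR-27a replicate 1 (0.50) or 2 (0.67), miR-23b replicate 1 (0.64) or miR-182-iso replicate 2 (0.59). RALB, a RAS-like GTPase, TGFBR2, a TGF-beta receptor, and PPARG were not called, with differences of 0.04, 0.01 and -0.03. Their intervals were -0.23 to 0.30, -0.31 to 0.34 and -0.47 to 0.41 (95%), so differences as large as that of MAPKAPK5 lay outside all 3. PPP2R5C, a phosphatase subunit, had no probe in the table.

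Targets of miR-27a from luciferase tests of earlier studies did not stand out against the other duplexes. Of 16 listed genes 9 were measured, 2 (22.2%) were higher and 2 (22.2%) lower, beside 17.1% and 16.9% of all genes. The median difference was -0.10. Without miR-182-iso 0 were higher and 1 lower, and against miR-23b alone 0 and 0. The study compared its pull-down with mock-transfected controls, which are not among these libraries. By that other measure it reported such targets of miR-27a as over-represented among the enriched genes. SPRY2 (Sprouty 2), an inhibitor of receptor tyrosine kinase signaling, was at 10.86, 10.09 and 10.60 with miR-27a against 9.0 to 10.27 (median 9.55) (difference 0.84, adjusted p = 0.0268). FOXO1, a forkhead factor restrained by AKT, was at 9.10, 9.15 and 9.43 against 8.48 to 9.22 (median 8.71) (difference 0.46, adjusted p = 0.0216). Libraries overlapped for both, and without the miR-182-iso comparator the differences were 0.60 and 0.37 and not called. The call of FOXO1 was also lost without miR-27a replicate 3 (0.35). That of SPRY2 was lost without miR-27a replicate 1 (0.67) or 3 (0.80), either miR-23b library (0.85 and 0.83) or miR-182-iso replicate 1 (0.78).

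PHB1 (prohibitin), a mitochondrial inner membrane protein, was captured less, at 10.47, 10.30 and 10.17 with miR-27a against 10.66 to 11.40 (median 10.89), with no overlap (difference -0.67, adjusted p = 0.00133). SEMA6A, a semaphorin, was at 9.72, 9.60 and 9.81 against 9.70 to 10.23 (median 10), a difference of -0.31 at the edge of the threshold (adjusted p = 0.0499). Its call was lost without miR-182-iso (-0.28) and without any 1 of 10 libraries (all but miR-182-iso replicate 2, miR-17-5p replicate 2 and miR-17-5p-iso replicate 3), with differences between -0.26 without miR-27a replicate 2 and -0.36 without miR-27a replicate 3. FADD, an adaptor of death receptors, RXRA, the retinoid X receptor that pairs with PPARG, FBXW7, a ubiquitin ligase adaptor, and GTF2H2, of TFIIH, were not called, with differences of -0.32, -0.13, -0.10 and -0.09. FADD differed between comparator families, with means of 9.81 for miR-23b, 9.96 for miR-182-iso and 8.94 for the miR-17 family. It was called lower without the miR-17 family libraries in the comparator (-0.63) and without miR-182-iso replicate 2 (-0.40). PPARG, on this list too, was at 9.67, 9.11 and 9.62 with miR-27a, and its means were 9.89 with miR-23b, 9.63 with miR-182-iso and 8.98 with the miR-17 family. Its miR-27a mean of 9.47 ± 0.31 (SD, n = 3) thus lay between those of miR-182-iso and the miR-17 family.

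**Figure D3:**
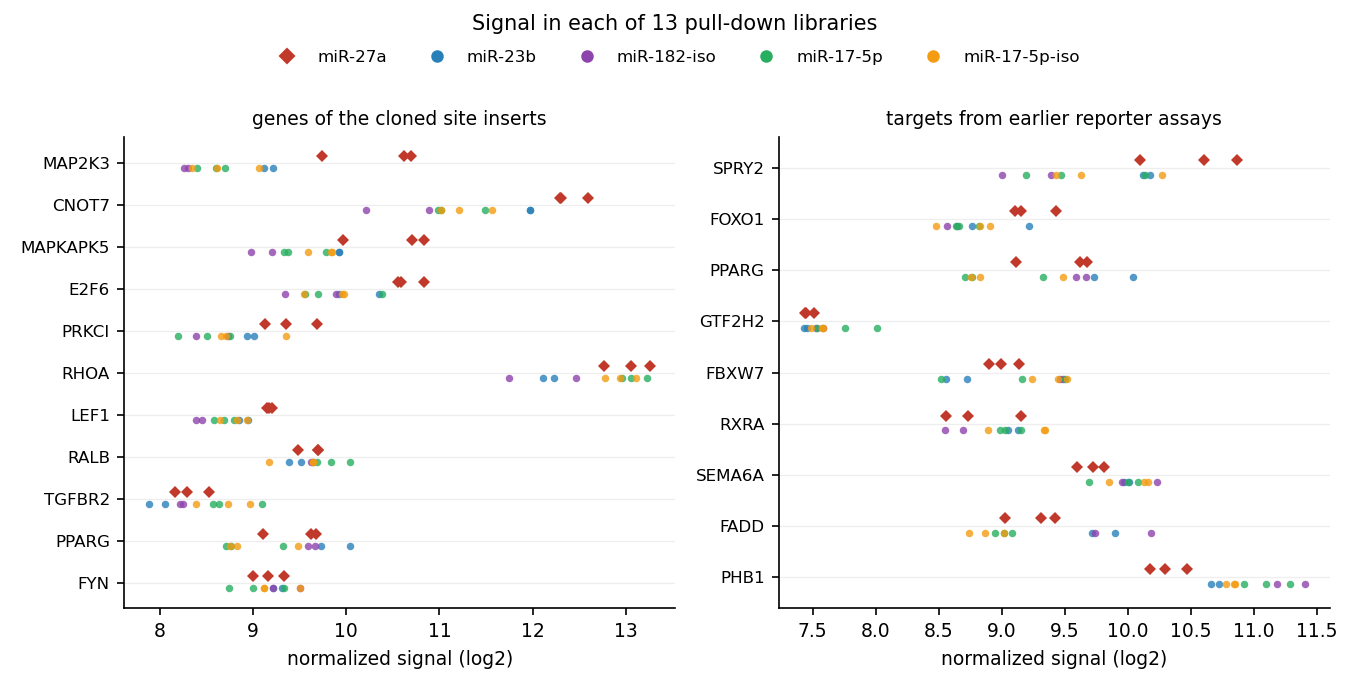
Normalized log2 signal (x axis) of each library for the 11 measured genes of the cloned inserts (left) and the 9 measured targets from earlier reporter assays (right), with miR-27a as red diamonds above and the 10 other libraries as circles below. In the left panel the miR-27a libraries of MAP2K3, CNOT7, MAPKAPK5, E2F6 and LEF1 lie above all others, and in the right panel those of PHB1 lie below all others.

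Signaling lists around these genes held called members in both directions. The shares of members called are to be read beside those of all genes, 17.1% higher and 16.9% lower, or 8.44% and 8.83% where miR-182-iso was left out of the comparator. In receptor tyrosine kinase and RAS/MAPK signaling, 11 of 44 measured genes (25%) were higher and 5 (11.4%) lower (median difference 0.02). The list held MAP2K3 and MAPKAPK5. MAP3K1, a kinase at the head of the JNK cascade, was 0.92 higher and MAPK6 (ERK3), an atypical MAP kinase, 1.04. Lower were MAPK3 (ERK1) at -0.92, MAPK7 (ERK5) at -0.72, the tyrosine kinase SRC at -0.68 and the JNK pathway kinase MAP3K11 at -0.59. Without miR-182-iso the list had 5 higher and 4 lower, and MAPK6 (0.40) and SRC (-0.48) were not called. Against miR-23b alone the list had 1 higher and 2 lower. Without the miR-17 family MAP3K11 was at -0.27 and not called, and without miR-23b MAPK3 was at -0.56 and still called. SRC was also not called without miR-27a replicate 3 (-0.56), and a second probe of MAPK7, at -0.21, was not called.

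In TGF-beta and BMP signaling, 5 of 20 measured genes (25%) were higher and 1 (5%) lower (median difference 0.07). This list kept its count of higher genes without miR-182-iso, with 5 higher and 1 lower. ID3, a target gene of BMP signaling that blocks other transcription factors, was 1.27 higher, the BMP type I receptor ACVR1 1.04, the common mediator SMAD4 0.64 and the type II receptor BMPR2 0.59. ID3, ACVR1 and SMAD4 were also called against miR-23b alone, at 1.68, 1.23 and 0.66. BMPR2 was not called without miR-27a replicate 1 (0.47), and its other probe, at 0.19, was not called. SMAD3, which carries the TGF-beta signal, was lower at -0.46, a call lost without any 1 of the 3 miR-27a libraries (-0.51, -0.41 and -0.45), without miR-23b replicate 2 (-0.42) or miR-182-iso replicate 2 (-0.44), and without the miR-17 family (-0.34).

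In Wnt and beta-catenin signaling, 5 of 32 measured genes (15.6%) were higher and 7 (21.9%) lower (median difference -0.06), and without miR-182-iso 5 higher and 5 lower. Beside LEF1, the receptor FZD3 was higher at 0.94 and the corepressor TLE4 at 0.75, though a second TLE4 probe, at 0.22, was not called. The scaffold AXIN1 was lower at -0.76, casein kinase CSNK1D at -0.63 and PYGO2, a coactivator of beta-catenin, at -0.69. The call of PYGO2 was lost without miR-27a replicate 2 (-0.61) or 3 (-0.63), and without the miR-23b comparator (-0.38). The secreted inhibitor DKK1 (0.54) lost its call without miR-27a replicate 1 (0.38) or 3 (0.57) or miR-23b replicate 2 (0.50), and without the miR-17 family (0.46). CSNK1E (-0.75) lost its call without miR-182-iso (-0.54) or miR-23b (-0.60), with the 10 other libraries weighted equally (-0.47), and without miR-27a replicate 1 (-0.75) or 2 (-0.58), miR-23b replicate 1 (-0.73) or miR-182-iso replicate 1 (-0.72).

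In PI3K, AKT and FOXO signaling, 3 of 26 measured genes (11.5%) were higher and 4 (15.4%) lower (median difference -0.01), and without miR-182-iso 1 higher and 0 lower. The ribosomal S6 kinase RPS6KB1 was 0.96 higher, a call lost without miR-27a replicate 1 (0.74), and the PI3K regulatory subunit PIK3R1 0.91. TSC1, an inhibitor of mTOR signaling, was lower at -0.57. Without miR-182-iso neither PIK3R1 (0.71) nor TSC1 (-0.41) was called. PIK3R1 was also not called without miR-27a replicate 1 (0.69) or 2 (0.85), miR-23b replicate 1 (0.86) or miR-182-iso replicate 2 (0.76), or without the miR-17 family (0.87). In lipid and sterol synthesis with regulators of fat cells, 7 of 40 measured genes (17.5%) were higher and 5 (12.5%) lower (median difference -0.02), and without miR-182-iso 4 higher and 3 lower. CEBPG, a C/EBP transcription factor, was 1.45 higher, the citrate lyase ACLY 1.32, the fatty acid elongase ELOVL5 0.82 and INSIG2, which restrains sterol synthesis, 0.81. A second ACLY probe, at 0.18, was not called, and ELOVL5 was not called without miR-27a replicate 3 (0.67). The sterol enzyme LSS was lower at -0.70, the phosphatidate phosphatase LPIN1 at -0.65, not called without miR-27a replicate 1 (-0.58) or the miR-17 family (-0.49), and the acyltransferase AGPAT2 at -0.53, with 1 of its other 2 probes (-0.28) not called.

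Lists around the leading genes were looked at next, since a leading gene says nothing of its complex. Among ETS transcription factors, 4 of 11 measured genes (36.4%) were higher and 2 (18.2%) lower (median difference 0.13), beside 17.1% and 16.9% of all genes. Without miR-182-iso 3 were higher and 2 lower (median 0.02), and against miR-23b alone 1 was higher and 2 lower (median -0.03). After ELF1 came ELF2 at 0.93 and GABPB1, a partner of an ETS factor, at 0.42, while ELF4 was lower at -0.51. ERF, a repressor, was at -0.43, and not called without miR-27a replicate 2 (-0.37). In the list of TFIIH and general transcription factors, 6 of 28 measured genes (21.4%) were higher and 3 (10.7%) lower (median difference 0.03), and without miR-182-iso 5 higher and 0 lower. Next to GTF2H5 stood TBPL1, a TBP-like factor, at 0.98, and GTF2H1, another TFIIH subunit, at 0.70. The TFIIH helicase ERCC3 was lower at -0.71, the TFIIF subunit GTF2F1 at -0.84 and TAF15 at -0.73. None of the 3 was called without miR-182-iso, with ERCC3 at -0.09, GTF2F1 at -0.35 and TAF15 at -0.45. A second TAF15 probe was at -0.07. ERCC3 averaged 8.36 ± 0.21 (SD, n = 3) with miR-27a, against 10.31 with miR-182-iso, 8.36 with miR-23b and 8.55 with the miR-17 family.

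Of Integrator and Mediator, 6 of 35 measured genes (17.1%) were higher and 6 (17.1%) lower (median difference -0.04), and without miR-182-iso 6 higher and 4 lower. INTS12 was the only Integrator subunit among the 4 largest positive differences of the list, followed by the Mediator parts CCNC (cyclin C) at 1.25, MED4 at 1.04 and MED23 at 0.97. The other probes of CCNC (-0.23 and 0.09) and of MED23 (0.23) were not called, and MED4 was not called without miR-182-iso (0.71). MED24 was lower at -1.29, still called at -0.41 without miR-182-iso, and MED20 at -0.80, -0.40 and not called without it. INTS7 turned round: it was lower at -0.51 and at 0.04, not called, without miR-182-iso. Its call was also lost without any 1 of 5 single libraries, miR-27a replicates 1 and 2, miR-23b replicate 2, miR-182-iso replicate 2 and miR-17-5p-iso replicate 3, at -0.54 to -0.38, and with the 10 other libraries weighted equally (-0.15). Among spliceosome and SR proteins, 7 of 38 measured genes (18.4%) were higher and 11 (28.9%) lower (median difference 0.02), and without miR-182-iso 4 higher and 7 lower. SF3B4 stood far above the next, the core protein SNRPD1 at 0.85 and the SR protein SRSF7 at 0.82. Lower were SNRPA, of the U1 particle, at -1.36, SRSF4 at -1.12 (-0.66 without miR-182-iso) and SF3B3, of the same U2 subcomplex as SF3B4, at -0.91. SNRNP70, also of U1, was at -1.10 and at -0.69, not called, without miR-182-iso, and its other probe (-0.37) was not called.

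Among genes of cell junctions and polarity, 7 of 22 measured genes (31.8%) were higher and 3 (13.6%) lower (median difference 0.07), and without miR-182-iso 3 higher and 2 lower. TJP1 was followed by the connexins GJA1 at 0.85 (0.54 without miR-182-iso) and GJC1 at 0.74 and by the claudin CLDN12 at 0.68, with GJC1 not called without miR-182-iso (0.41). The polarity scaffold SCRIB was lower at -0.87 and the junction protein JUP (plakoglobin) at -0.81. Among kinesins and mitotic kinases, 10 of 38 measured genes (26.3%) were higher and 5 (13.2%) lower (median difference -0.06), and without miR-182-iso 5 higher and 2 lower. KIF2A led, the checkpoint protein BUB3 was at 0.72 and KIF20B at 0.69. Another BUB3 probe, at -0.44, was not called. KIF2C, a kinesin of the same family, ran the other way from KIF2A, at -0.34, but was not called without miR-182-iso (-0.26) or without miR-27a replicate 2 or 3, miR-23b replicate 1 or miR-182-iso replicate 2 (-0.34 to -0.28), or without the miR-17 family (-0.25). AURKB was lowest, then KIFC1 at -0.93 and PLK1 at -0.55; without miR-182-iso KIFC1 was still called at -0.34 and PLK1, at -0.39, was not called.

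Cullin-RING ubiquitin ligases had the highest median of the 24 pathway and family lists. Of them 17 of 59 measured genes (28.8%) were higher and 4 (6.78%) lower (median difference 0.25), beside 17.1% and 16.9% of all genes. Without miR-182-iso 9 were higher and 1 lower (median 0.22), beside 8.44% and 8.83%, and against miR-23b alone 5 were higher and 1 lower (median 0.24), beside 3.39% and 4.61%. By library, the median deviation of the list from the comparator mean was 0.18, 0.23 and 0.20 with miR-27a, against -0.09 to 0.11 in the 10 others, so the groups did not overlap. FBXW11, which brings beta-catenin and other phosphorylated proteins to the ligase, was at 12.26, 12.08 and 12.78 against 10.63 to 11.28 (median 11.18), a difference of 1.30 (standard error 0.16, adjusted p = 0.000752). FBXO8, an F-box protein, was at 9.72, 10.10 and 10.24 against 8.81 to 9.44 (median 9.03), a difference of 1.05 (standard error 0.12). Neither gene's libraries overlapped, and both were called against miR-23b alone (1.27 and 1.11). Of the 59 genes, 10 had all miR-27a libraries above all others and 1 below, beside 6.16% and 5.88% of all genes. VHL, the substrate adaptor for hypoxia-inducible factor, was 0.97 higher and ELOC (elongin C), its partner, 0.91. The call of VHL was lost without miR-182-iso (0.72) or miR-27a replicate 2 (0.80), and its other probes (0.04 and 0.60) were not called. The call of ELOC was lost without miR-27a replicate 3 (0.62). DDB1, the adaptor of CUL4 ligases, was lower at -0.65 and KLHL18 at -0.53, neither of them called without miR-182-iso (-0.26 and -0.24).

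Of the list of miRNA silencing and mRNA decay, 7 of 35 measured genes (20%) were higher and 8 (22.9%) lower (median difference 0.05), near the 17.1% and 16.9% of all genes, and without miR-182-iso 5 higher and 5 lower. PRKRA, a partner of Dicer, was 1.36 higher, the antiproliferative factor BTG1, which binds the deadenylase, 0.89 (0.56 without miR-182-iso) and the exonuclease XRN1 0.72, beside CNOT7. PATL1 and EDC3, both of the decapping machinery, were lower at -0.91 and -0.85, and CNOT3, of the same complex as CNOT7, at -0.72 (-0.43 without miR-182-iso). TNRC6A, the Argonaute partner GW182, was at -1.09 with a standard error of 0.35, and its call was lost without miR-182-iso (-1.12) or without any 1 of the 7 libraries of miR-27a, miR-23b and miR-182-iso, the smallest of these being -0.93 without miR-27a replicate 3. Without the miR-17 family it was at -0.86 and not called. Streptavidin could also hold proteins that carry biotin. The list of biotin enzymes and transport, whose members do not all carry it, had 0 of 8 measured genes higher and 1 lower, PCCB at -0.53. Its median difference was -0.25, and -0.01 against miR-23b alone. PCCB was not called without miR-182-iso (-0.46), without the miR-17 family (-0.45) or without any 1 of 8 libraries (miR-27a replicates 1 and 3, both of miR-23b, both of miR-182-iso and miR-17-5p replicates 1 and 3), at -0.57 to -0.36.

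Lists of energy metabolism and protein synthesis held more genes that were lower with miR-27a than genes that were higher, with smaller counts against miR-23b alone, where 4.61% of all genes were lower and 3.39% higher. In glycolysis, 0 of 21 measured genes were higher and 10 (47.6%) lower (median difference -0.54), beside 16.9% lower over all genes. GPI, the isomerase of its second step, was at 8.68, 8.80 and 8.51 with miR-27a against 9.28 to 10.96 (median 9.92) (difference -1.40, adjusted p = 0.00161). ALDOA (aldolase A) was at 10.59, 10.80 and 10.65 against 11.17 to 13.10 (median 12.14) (difference -1.35, adjusted p = 0.000852), while a dimmer ALDOA probe at -1.57 was not called. GAPDH was at 11.78, 12.13 and 12.18 against 12.87 to 14.22 (median 13.21) (difference -1.18, adjusted p = 0.00515). In 10 of the 21 genes, these 3 and TPI1 among them, all miR-27a libraries lay below all 10 others, and in 0 above. Over all genes 5.88% lay below and 6.16% above. By library the median deviation of the 21 genes was -0.56, -0.51 and -0.53 with miR-27a, against -0.24 and -0.27 with miR-23b, 0.14 and 0.45 with miR-182-iso and -0.23 to 0.20 with the miR-17 family. Against a comparator without miR-182-iso, 7 were lower (median -0.38), and against miR-23b alone 0 (median -0.32).

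Of respiratory complexes III to V, 4 of 34 measured genes (11.8%) were higher and 18 (52.9%) lower (median difference -0.55), and without miR-182-iso 4 higher and 10 lower (median -0.40). Against miR-23b alone there were 4 higher and 3 lower (median -0.27). Below COX6B1 in size came UQCRQ of complex III at -1.25, CYC1 (cytochrome c1) at -1.22 and COX5B, another subunit of cytochrome c oxidase, at -1.34. COX5B was not called without miR-27a replicate 1 (-1.07) or the miR-17 family (-0.52), and its mean was 10.39 ± 0.47 with miR-27a (SD, n = 3), against 10.36 with miR-23b and 13.39 with the miR-17 family. A few subunits ran the other way. After UQCR10, ATP5PO of the ATP synthase was at 12.68, 13.07 and 13.73 with miR-27a against 11.04 with miR-23b, 13.43 with miR-182-iso and 11.15 with the miR-17 family, a difference of 1.29 and 2.07 without miR-182-iso. COX5A was 0.65 higher, at 1.42 against miR-23b alone and at 0.26, not called, without miR-23b. Of complex I, 1 of 27 measured genes (3.7%) were higher and 10 (37%) lower (median difference -0.35), and without miR-182-iso 1 higher and 5 lower. Against miR-23b alone there were 1 higher and 0 lower (median -0.27). NDUFA3 was at -1.20, NDUFB11 at -0.92 and NDUFV1 at -0.90 (-0.58 without miR-182-iso), while NDUFA13 was higher at 0.62, not called without miR-27a replicate 1 (0.43) or miR-23b (0.39).

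Of mitochondrial ribosomal proteins, 9 of 76 measured genes (11.8%) were higher and 32 (42.1%) lower (median difference -0.35), and without miR-182-iso 6 higher and 16 lower (median -0.23). Against miR-23b alone there were 4 higher and 7 lower (median -0.14). MRPL46 and MRPL21 of the large subunit were lower at -0.98 and -0.96 (-0.57 and -0.59 without miR-182-iso). MRPL14 was at -1.31 and MRPS33 at -1.06, neither called without miR-182-iso (-0.48 and -0.33). Within the same ribosome MRPL17 was higher, at 11.34, 11.11 and 11.37 with miR-27a against 9.22 to 10.03 (median 9.64) (difference 1.59, adjusted p = 0.000265), and MRPS16, at 13.33, 12.16 and 12.53 against 10.55 to 12.07 (median 11.04) (difference 1.64, adjusted p = 0.00463). Of cytosolic ribosomal proteins, 1 of 72 measured genes (1.39%) were higher and 21 (29.2%) lower (median difference -0.38), and without miR-182-iso 2 higher and 6 lower (median -0.38). Against miR-23b alone there were 0 higher and 3 lower (median -0.21). FAU was lower at -1.22. RPS26 at -1.93, RPL29 at -1.27 and RPL19 at -1.20 were not called without miR-182-iso (-0.78, -0.62 and -0.61). RPL19 was also not called without any 1 of 7 libraries (miR-27a replicates 1 and 3, miR-23b replicate 2, both of miR-182-iso, and replicate 3 of miR-17-5p and of miR-17-5p-iso), at -1.34 to -0.69. RPL5 was the 1 gene called higher, at 0.48. Many copies of ribosomal protein genes exist in the genome, and what else these probes read was not tested.

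Of proteasome genes, 1 of 37 measured genes (2.7%) were higher and 10 (27%) lower (median difference -0.32), and without miR-182-iso 1 higher and 3 lower. Against miR-23b alone there were 1 higher and 0 lower (median -0.06). By library the list's median deviation was -0.37, -0.16 and -0.41 with miR-27a, against -0.36 and -0.29 with miR-23b, so these overlapped. PSMB5, a catalytic subunit, was at -1.21 (-0.77 without miR-182-iso) and PSMG1, an assembly chaperone, at -1.13, but -0.59 and not called without the miR-17 family. PSME1, of an activator, was at -1.17 and at -0.39, not called, without miR-182-iso, and PSMB3 turned round, being lower at -0.82 with all families and at 0.10, not called, without it. Of tubulins, 2 of 15 measured genes (13.3%) were higher and 8 (53.3%) lower (median difference -0.49), and without miR-182-iso 0 higher and 5 lower. Against miR-23b alone there were 0 higher and 2 lower (median -0.01), and by library the median deviation was -0.48, -0.34 and -0.53 with miR-27a, against -0.36 and -0.34 with miR-23b. TUBB2B was at -1.01 and the gamma-tubulin TUBG1, which seeds microtubules, at -1.18, with further TUBG1 probes at -0.20, -1.20 and -1.44, of which only the last was called. TUBD1, a tubulin of centrioles, was higher at 0.58, not called without miR-182-iso (0.37).

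Of chaperonin and heat shock proteins, 9 of 54 measured genes (16.7%) were higher and 13 (24.1%) lower (median difference -0.04), and without miR-182-iso 6 higher and 4 lower. After DNAJC8, other J-domain proteins called higher were DNAJC19 of the mitochondrial import motor at 1.23, and DNAJB9 and DNAJC10 of the endoplasmic reticulum at 0.91 and 0.86, with a second DNAJC10 probe (0.23) not called. STIP1, which links HSP70 and HSP90, was lower at -1.21, and TRAP1, the mitochondrial HSP90, at -1.75, -1.11 and not called without miR-182-iso. Of zinc finger proteins of the ZNF series, 37 of 210 measured genes (17.6%) were higher and 18 (8.57%) lower (median difference 0.00), and without miR-182-iso 10 higher and 9 lower. ZNF652 was highest at 1.32 (0.88 without miR-182-iso), and ZNF296 lowest at -0.99, followed by ZNF598, which acts at stalled ribosomes, at -0.93, with its other probe (-0.33) not called. ZNF483, ZNF430 and ZNF69 were at 1.22, 1.09 and 1.02, and none of them was called without miR-182-iso (0.68, 0.60 and 0.57), nor was a second ZNF430 probe (0.03). Of solute carriers, 27 of 147 measured genes (18.4%) were higher and 28 (19%) lower (median difference -0.05), about the shares over all genes, and without miR-182-iso 13 higher and 18 lower. After SLC46A3 came the zinc transporter SLC30A5 at 1.41, whose other probe (0.34) was not called, the nucleotide sugar transporter SLC35A3 at 1.23 and the mitochondrial ornithine carrier SLC25A15 at 1.21, while SLC35A4 was lower at -0.87.

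**Figure D4:**
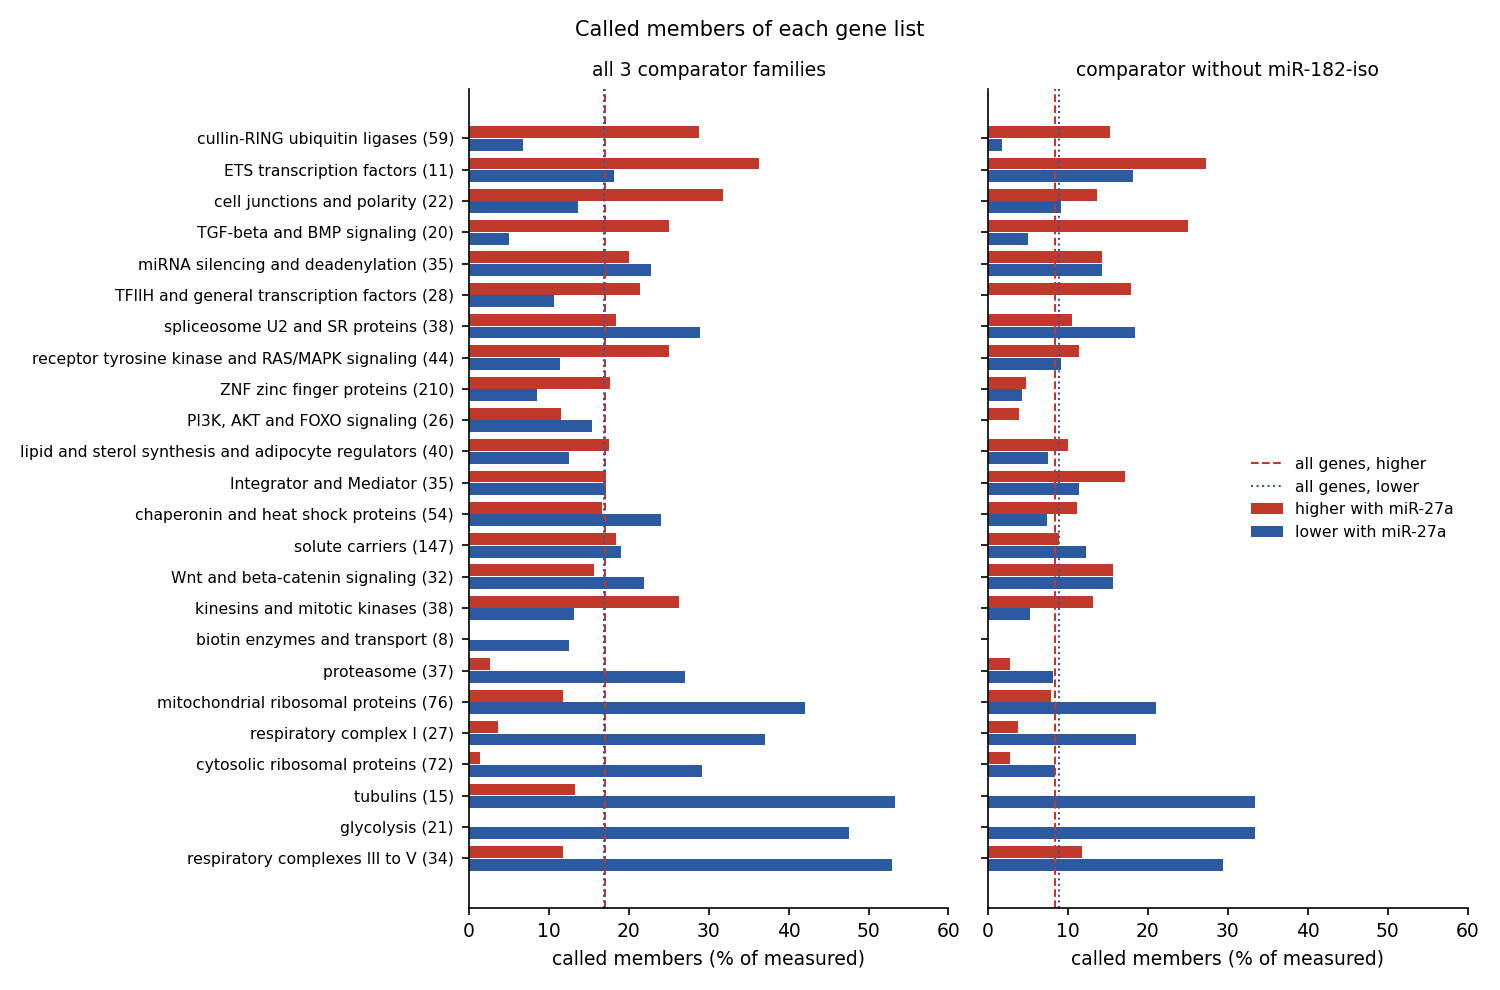
Share of measured members called higher (red) or lower (blue) with miR-27a in each of 24 gene lists, in percent on the x axis, with the number measured in brackets. Lists run from the highest median difference at the top to the lowest at the bottom, the left panel uses all 3 comparator families and the right panel leaves miR-182-iso out. Dashed red and dotted blue lines give the shares over all genes, 17.1% and 16.9% on the left and 8.44% and 8.83% on the right.

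Genes captured more with miR-27a spanned more of the genome. The span is the distance from start to end of a gene in RefSeq, introns included, and was not used in any test of capture. Its median was 39.8 kb for genes called higher (quartiles 18.9 and 83.2 kb), 16 kb for those called lower (7.31 and 38.1 kb) and 30.1 kb for those not called (11.8 and 71.3 kb). When genes were ordered by span and cut into 5 equal groups of 1675, 8.78% of the shortest were higher and 26.3% lower, and 20.8% of the longest were higher and 8.84% lower. The median difference was -0.15 in the shortest group, then -0.07, -0.01 and 0.04, and 0.05 in the longest. Against each family alone the order was alike, with 1.85% higher and 9.13% lower in the shortest group and 3.82% and 1.85% in the longest for miR-23b. For miR-182-iso the shares were 10.5% and 27% in the shortest group and 24.9% and 13.7% in the longest, and for the miR-17 family 7.64% and 18.9% against 17.3% and 8.18%. These 3 comparisons share the miR-27a libraries. Signal also differed between the sets, with median signals of 9.33, 9.13 and 8.54 for genes called higher, lower and not called, and the part of signal level in the result was not tested. Genomic span is not mRNA length, which was not available for these probes.

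**Figure D5:**
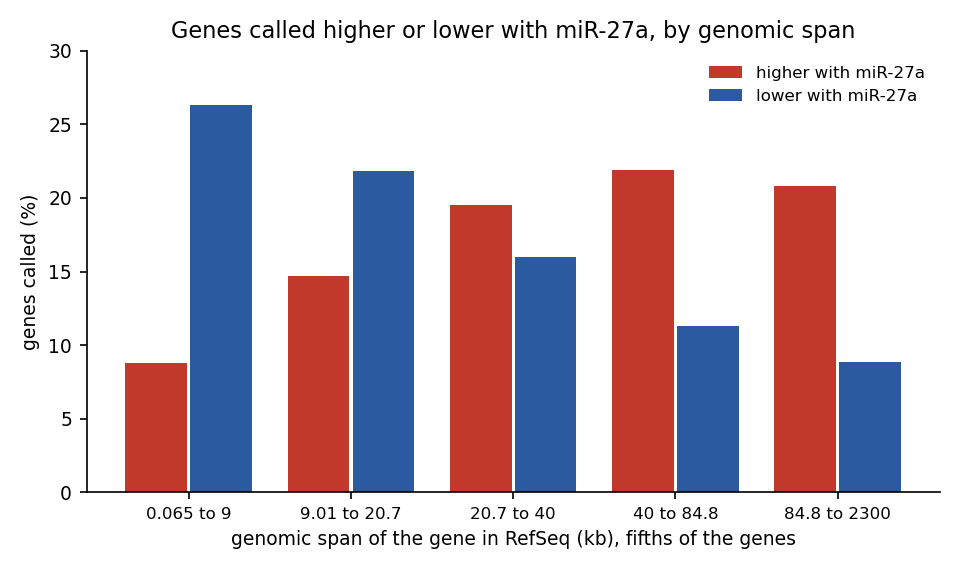
Percent of genes called higher (red) or lower (blue) with miR-27a on the y axis, in 5 equal groups of genes ordered by genomic span (x axis, kb). The share called higher is 8.78% in the shortest and 20.8% in the longest group, and the share called lower 26.3% and 8.84%.

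How far miR-27a stood from each comparator differed. The root mean square difference over all probes was 0.426 from miR-23b, 0.495 from the miR-17 family and 0.728 from miR-182-iso. By gene, 284 (3.39%) were higher and 386 (4.61%) lower than with miR-23b alone, 1695 (20.2%) and 1692 (20.2%) than with miR-182-iso alone, and 1191 (14.2%) and 1071 (12.8%) than with the miR-17 family alone. By probe, 378 probes were higher and 470 lower than with miR-23b, and 2181 higher and 2385 lower than with miR-182-iso, both of which have 2 libraries and the same median standard error (0.181). Against the miR-17 family, with 6 libraries (0.140), 1542 were higher and 1388 lower. Among the probes called higher with miR-27a, whose median signal was 9.74 with miR-27a, the medians were 9.22 with miR-23b, 9.07 with the miR-17 family and 8.70 with miR-182-iso. miR-23b was the brightest comparator family for 59.4% of these probes, and for 36.1% of all probes. Among the probes called lower, whose median was 8.63 with miR-27a, the medians were 9.11, 9.16 and 9.54 in the same order, and miR-182-iso was the brightest family for 64.1%, against 38.5% of all probes. These shares describe the sets, which were chosen on the same contrast. Of the comparators, miR-23b thus gave the pattern nearest to that of miR-27a, and it is also the one whose seed differs at a single position. Whether shared sites, or the array version or handling of the libraries, account for the likeness was not tested.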

How the data were processed

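The authors processed the Illumina HT-12 signals with lumi 2.2.1 (background adjustment, variance-stabilizing transformation, robust spline normalization) and kept probes detected in all mock controls. The deposited values are on a log2-like scale. A further table of unnormalized signals has 26 columns that name no sample and was not used. Of 12007 probes, 10444 had 1 gene symbol and 1562 had none. For each gene the brightest probe, by its mean over the 13 libraries, was taken, giving 8378 genes.

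Differences were fitted with limma 3.58.1 in R 4.3.3, in 1 model with 5 groups, as two-sided tests with Benjamini-Hochberg adjustment over all 12007 probes. Tables and plots used Python 3.11.15 with numpy 2.4.6, pandas 2.3.3 and matplotlib 3.10.9. On simulated data, 29.5%, 84% and 97.5% of 200 probes changed by 0.5, 1 and 1.5 were recovered, and 7.81%, 6.15% and 6.25% of the calls were false. The simulation had independent noise, no differences between the other groups and far fewer changed probes than were called here. These shares need not hold for the real libraries. Named genes are the site and reporter lists, the 15 largest positive and 10 largest negative differences among called genes without overlap, and up to 4 called members of each other list in each direction, of which the text prints a part. Members and lists were chosen with earlier results of these data known. The alternatives tried changed the comparator, threshold, sidedness, scaling, variance model, array weights, filter on dim probes, probe for a gene, replicate block and libraries. Chromosomes, gene spans and mature miRNAs come from RefSeq (GRCh38.p14).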

Additional observations from a re-analysis of the deposited data

How the results depend on the processing

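The counts of called probes, 1830 higher and 1816 lower with miR-27a, depended most on the miR-182-iso libraries and the threshold. With a comparator without miR-182-iso, 916 were higher and 902 lower, and with both of its libraries also left out of the fit 845 and 782 (an alternative chosen after seeing the data). The stricter threshold of 0.01 for the adjusted p left 831 and 713. Leaving out each library in turn gave 1117 to 1980 higher and 1051 to 2020 lower, both lowest without miR-27a replicate 1. The other alternatives stayed within 1.5 times of these counts. Deviations of same-numbered libraries correlated at r = 0.103 to 0.631 among miR-27a, miR-23b and miR-17-5p-iso but at -0.334 to 0.335 in pairs with miR-17-5p. In all, 13 of 23 pairs were over 0.1. The numbers were thus not taken to pair libraries, although 9 of 13 libraries correlated best with their own number. Replicate 2 of miR-17-5p correlated at 0.292 to 0.516 with replicate 1 of each other group. A block on the numbers cannot take up such a pairing, and whether these libraries shared a run was not tested. With the replicate number as a block 1882 probes were higher and 1889 lower. Of the 178 called genes named by the rule, 6 lost their calls, SEMA6A (adjusted p = 0.0547) and KIF2C (0.0519) among them.

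The counts of probes with all miR-27a libraries above (674) or below (628) all others, for which all alternatives were chosen after seeing the data, were 1124 and 1065 without the miR-23b libraries, 1539 and 1603 without the miR-17 family, and 418 and 415 among brighter probes. Leaving out each library gave 690 to 1102 above and 644 to 1076 below. Fewer libraries make this criterion easier by its construction. Of 178 called genes named by the rule, 91 kept their call in all 25 settings and 87 lost it in at least 1. INTS7 and PSMB3 reversed, to 0.043 and 0.101, in both settings without miR-182-iso, and the cause was not tested. With miR-182-iso left out of the fit, PPIAL4A (-1.68), SMAD3 (-0.50), AXIN1 (-0.56), LSS (-0.50), AGPAT2 (-0.38), MED23 (0.80), CLDN12 (0.47), KIF20B (0.53), ELOC (0.86), RPL5 (0.34), MRPL46 (-0.57), MRPL21 (-0.59) and ZNF296 (-0.70) also lost their calls. Of 1976 counts and medians of gene lists 347 moved, by over 1.5 times for a count or by more than 1 SD between the miR-27a libraries for a median, 84 of them in those 2 settings. The number of arrays limits the precision, and dim probes have compressed differences.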
